A study of Mus musculus with 20 samples.

Results

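The genes described here make, cut or bind hyaluronan, the sugar polymer that CD44 binds at the cell surface. They were Has1, Has2, Has3, Hyal1, Hyal2, Lyve1, Stab2, Hmmr and Tnfaip6, and their probes were found by the gene name in the files or by the current symbol of the accession. These 9 genes, of 28786 symbols on the array, had 13 of its 41174 probes. Has1, Has2, Hyal1 and Lyve1 (listed as Xlkd1 in the files) had 2 probes each, and every gene is described by its brightest probe, with the other probe given beside it.

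RNA was taken from the liver and white adipose tissue (WAT) of male C57BL/6 mice, 7 months old, that had eaten a diet with 35% fat for 21 weeks. Mice without CD44 (CD44KO), a null line that the study's methods say had been backcrossed onto C57BL/6J and that lacks the gene in all cells, were compared with wildtype (WT) mice on the same high-fat diet (HFD). Each genotype and tissue had 5 samples, each read on 1 Agilent array with Cy3 as the only dye. No group on normal chow is part of the arrays, so the values describe obese mice, and the labels do not say whether a liver and a WAT sample came from the same mouse.

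Hyaluronan is made at the plasma membrane by the hyaluronan synthases, Has1, Has2 and Has3, which join UDP-glucuronic acid and UDP-N-acetylglucosamine and push the growing chain out of the cell. Long chains are cut by Hyal2, a hyaluronidase anchored at the cell surface, and by Hyal1, a lysosomal hyaluronidase, while the sinusoidal endothelium of the liver clears circulating hyaluronan through the scavenger receptor Stab2. Lyve1 is a hyaluronan receptor of lymphatic and liver sinusoidal endothelium and of some macrophages, Hmmr (RHAMM) is a hyaluronan-binding protein that also works at the mitotic spindle, and Tnfaip6 (TSG-6) is an inflammation-induced protein that moves heavy chains of inter-alpha-trypsin inhibitor onto hyaluronan.

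The probes whose values carry the results are shown by the first 30 of their 60 bases, as the files give them, with positions in build mm7. Capitals mark the bases that lie in both Hyal1 probes, which overlap by 50 bases and so are not separate readings of that gene. The longest run shared by probes of different genes in the set was 8 bases.
Has1 probe: atttaagattcttcaatatggactgtattg
Has2 probe: ctagtgggaaacaaacacaccctgacaata
Hyal1 probe: cagtcacgggAATAGTCACATAGTGAATCA
Hyal1 second probe: AATAGTCACATAGTGAATCAGAGTTTAGGA
Hyal2 probe: tgttctaagggggagagaaacatcccctga
Lyve1 probe: cactttgtgtgcctttaacaaatacattat
Lyve1 second probe: cacccaaaactacggtgcgatgcttagaag
Stab2 probe: catttgttttaaagtatgataactcagaag
Tnfaip6 probe: tgaatttcggcattctgccttttgtaacct
The Has1 probe lies at chr17:16014445-16014504 and the Has2 probe at chr15:56729040-56729099, both on the minus strand. The Hyal2 probe, at chr9:107302066-107302125, and the Hyal1 probe, at chr9:107309000-107309059, are 6.88 kb apart on the plus strand. The Lyve1 probe lies at chr7:106765983-106766042 on the minus strand, with its second probe at chr7:106767480-106767538. The Stab2 probe is at chr10:86399664-86399723 on the minus strand. The Tnfaip6 probe, at chr2:52063795-52063854, is on the same chromosome as Cd44, 50.6 Mb from the Cd44 probe. Exons and untranslated regions are not given, because no annotation of that build was used here.

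A value below is the log2 of the processed signal minus the log2 of the 75th percentile of its array, called the scaled log2 signal, so 0 is the brightness that 25% of spots exceed. WT WAT replicate 1 stood apart from the other arrays: 89.5% of its spots were well above background, against 63.2% to 69.5% on the other WAT arrays and 57.4% to 61.9% in liver. Its lowest correlation with another WT WAT array across probes was 0.825, and 0.971 was the lowest without it. Cd44 was at a mean scaled log2 signal of 0.48 in WT liver and -3.74 in CD44KO liver, and at 4.07 in WT WAT and -0.51 in CD44KO WAT, a fall by limma in both tissues (adjusted p = 6.65e-06 and 7.63e-06). Of the Cd44 probes, 2 showed it in both tissues, and the remaining one differed by 0.20 in liver (adjusted p = 0.888). Alb, the hepatocyte product albumin, was at 10.25 in WT liver and Adipoq, the adipocyte hormone adiponectin, at 6.57 in WT WAT, where Adipoq was well above background on 1 WT liver array of 5.

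In liver, 1 of the 9 genes rose without CD44. Hyal2 was 1.25-fold higher in CD44KO liver, with no overlap between the groups, while Hyal1, Stab2 and Lyve1 did not pass the test. Has1, Has2, Has3, Hmmr and Tnfaip6 were too dim in liver to be tested: the test took only probes that stood well above background on 3 or more of a group's 5 arrays. The single call among 4 tested genes stands beside 13.6% of all 24688 probes tested in liver, or 7.85% higher and 5.75% lower, so a share of this size is not a result about hyaluronan genes.

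In WAT, none of the 9 genes passed the threshold of 0.05 on the adjusted p of limma, beside 0.0398% of the 27651 probes tested there. Has1 and Tnfaip6 had an unadjusted p below 0.05, as did 14.9% of all probes. On the log2 scale, 7 genes had a lower mean in CD44KO WAT and 2 a higher one, with a median difference of -0.56 beside -0.06 over all probes tested, although Has1 was at 0.026 under quantile normalization and Has3, 1 of the higher pair, at -0.37 under normexp background correction. Groups overlapped for each of the 9 genes, whereas 6.17% of the probes did not overlap.

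**Figure D1:**
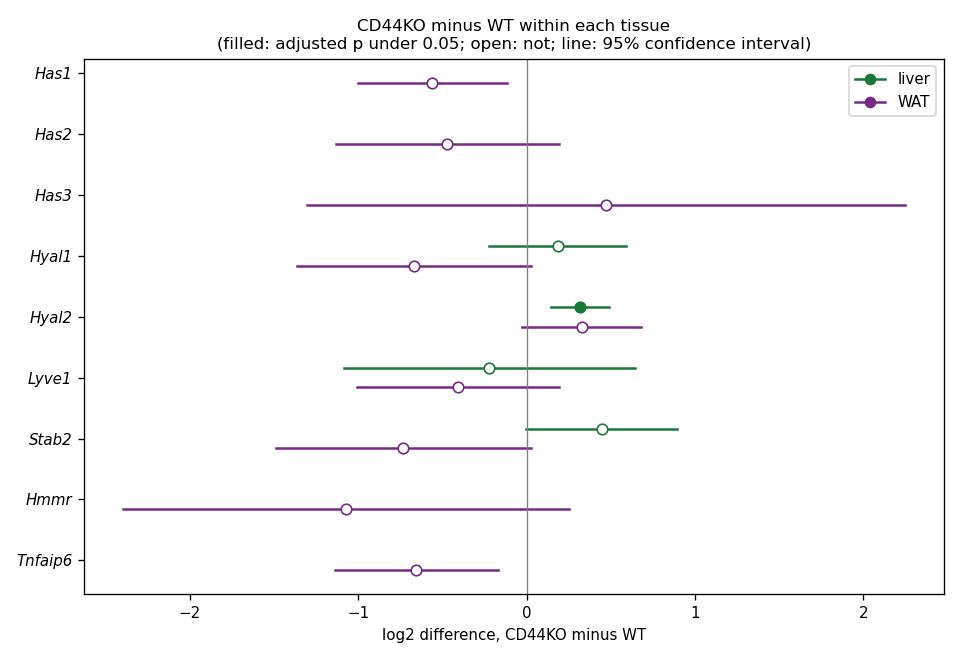
Difference in scaled log2 signal, CD44KO minus WT, for each gene tested in liver (green) and in WAT (purple), with 5 arrays per group; points are differences of means, lines their 95% confidence intervals, and filled points have an adjusted p under 0.05. Hyal2 in liver, at 0.32, is the only filled point, and 7 of the 9 WAT points lie below 0, where quantile normalization would put Has1 at 0.026 and normexp Has3 at -0.37.

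Hyal2, which begins the breakdown of long chains at the cell surface, was the gene called in liver. In WT liver its scaled log2 signals were 5.00, 5.06, 5.17, 5.19 and 5.05 in replicates 1 to 5, and in CD44KO liver they were 5.53, 5.26, 5.41, 5.52 and 5.35. The lowest CD44KO array thus lay above the highest WT array, as it did or the reverse for 11.7% of the probes tested in liver. The difference was 0.32 on the log2 scale (SE 0.08, 95% interval 0.15 to 0.49, n = 5 and 5, limma adjusted p = 0.0281), and the two-sided exact permutation test gave 0.0079, the smallest p that 5 against 5 allows. The median of all probes tested in liver was 0.08.

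The Hyal2 difference had 1 sign throughout but often missed the threshold. It was 0.26, 0.35 and 0.36 within the slides that held both genotypes. Under quantile normalization it was 0.18 (adjusted p = 0.0661) and under normexp background correction 0.21 (adjusted p = 0.395). The call also depended on single arrays: without WT liver replicate 1, 2 or 5, or CD44KO liver replicate 1, 4 or 5, the adjusted p was 0.0631, 0.0715, 0.0632, 0.0663, 0.068 and 0.0511, with differences of 0.29 to 0.33.

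**Figure D2:**
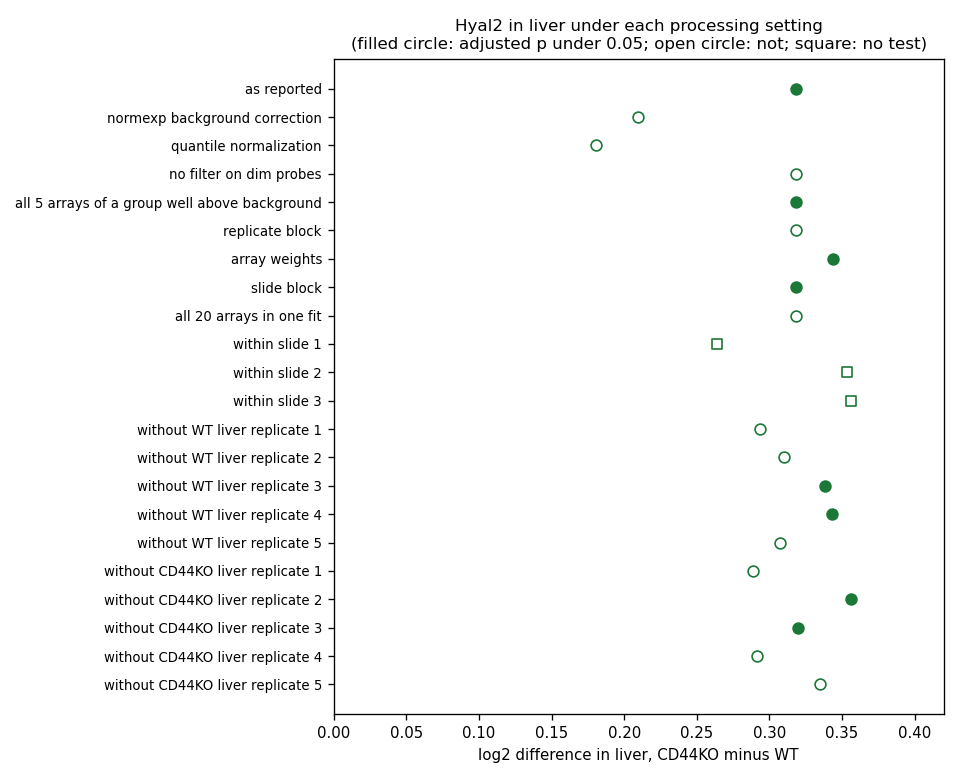
Difference of Hyal2 in scaled log2 signal between CD44KO and WT liver (horizontal axis, from 0) under each way of processing the arrays (vertical axis); filled circles have an adjusted p under 0.05, open circles do not, and squares are within-slide values with no test. Every value is above 0, from 0.18 to 0.36, and 4 of the 10 fits with 1 array left out are filled.

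Marker RNA of several cell types varied with genotype in the same livers. Of the Kupffer cell markers, all 6 had a higher mean without CD44 and 2 passed the threshold, with sums of 28.6 to 84.4 in WT and 72.9 to 191.7 in CD44KO liver, in multiples of the array's 75th percentile. Of 8 markers of fibroblasts and stellate cells 4 fell and none rose, with sums of 91.7 to 132.8 in WT and 61.8 to 88.0 in CD44KO. Of 7 general macrophage markers tested 2 fell, Itgax and Mpeg1, and 5 had a lower mean, with a median of -0.80 and sums of 26.9 to 43.3 in WT and 17.0 to 37.9 in CD44KO, against the direction of the Kupffer list. Of 8 dividing-cell markers tested 7 fell. Of 3 adipocyte markers tested 1 fell, Cidec, with a log2 difference of -2.12 (limma adjusted p = 0.0486). The study lists Cidec among liver genes of lipid accumulation. Adipoq, Lep and Plin1 were well above background on at most 1 liver array of a group and were not tested. These calls stand beside 7.85% of all probes tested in liver that rose and 5.75% that fell. The part of these cells in the Hyal2 values was not tested.

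In WAT the scaled log2 signal of Hyal2 was 3.01, 3.24, 3.34, 3.61 and 3.27 on the WT arrays and 3.83, 3.49, 3.84, 3.38 and 3.57 on the CD44KO arrays. WT WAT replicate 4 was above 3 of the CD44KO arrays, so the groups overlapped. The mean difference, 0.33 (SE 0.16, limma adjusted p = 0.364, exact permutation p = 0.048), was near that in liver, and the interaction between genotype and tissue was -0.01 with a 95% interval of -0.36 to 0.34.

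Hyal1 showed no called difference between genotypes. Its scaled log2 signal in WT liver was 1.05, 1.34, 1.23, 2.14 and 1.36, with replicate 4 apart from the rest, and in CD44KO liver 1.73, 1.79, 1.40, 1.57 and 1.56. The mean difference in liver was 0.18 (SE 0.18, adjusted p = 0.526, limma). Without WT liver replicate 4 it was 0.36, past the threshold (adjusted p = 0.0473), and within the 3 liver slides it was -0.06, 0.27 and 0.49.

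The WAT arrays gave the opposite sign for Hyal1. Its scaled log2 signal was -0.79, -1.89, -1.10, -1.88 and -2.02 in WT WAT and -1.93, -2.40, -2.94, -1.65 and -2.11 in CD44KO WAT, with WT replicates 1 and 3 above every CD44KO array. The difference was -0.67 (SE 0.31, 95% interval -1.37 to 0.03, adjusted p = 0.351), and -0.55 by the overlapping second probe, with -0.92 and -1.27 within slides 4 and 5. The interaction for Hyal1 was 0.85 with an adjusted p of 0.278.

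Stab2, the clearance receptor, did not pass in either tissue. Its scaled log2 signal was 1.85, 2.004, 1.01, 1.99 and 1.89 in WT liver and 2.40, 2.06, 2.37, 1.80 and 2.34 in CD44KO liver. WT liver replicate 3 was the low array, and CD44KO replicate 4 was below 4 of the WT arrays. The difference of 0.44 (SE 0.20, 95% interval -0.00 to 0.89) had an adjusted p of 0.157 and was 0.26 without WT liver replicate 3. Within the slides it was -0.07, 0.48 and 1.39, the last between 2 arrays of which 1 was that replicate.

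Markers of the liver sinusoidal endothelium leaned the same way as Stab2 in liver. Of 8 listed genes, all measured, 7 had a higher and 1 a lower mean in CD44KO liver, none passed the threshold, and their median difference was 0.45. Their summed level, in multiples of the array's 75th percentile, was 20.8 to 49.7 in WT and 37.0 to 52.6 in CD44KO liver. The part of these cells in the Stab2 values was not tested, and in bulk RNA fewer cells of a type and less RNA per cell cannot be told apart.

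In WAT the scaled log2 signal of Stab2 was -1.43, -0.75, -0.63, -0.67 and -0.93 in WT and -2.61, -2.12, -0.76, -1.17 and -1.41 in CD44KO mice. CD44KO replicates 1 and 2 lay below all WT arrays, and the other 3 lay among them. The difference was -0.73 (SE 0.34, 95% interval -1.49 to 0.02, adjusted p = 0.349), 0.01 within slide 5 and -0.72 within slide 4. It was -0.36 under quantile normalization (adjusted p = 0.712), and array weights called it at -0.68 (adjusted p = 0.0396). The same 8 liver sinusoidal markers had a median difference of -0.09 in WAT. All 6 markers of endothelium in general had a higher mean in CD44KO WAT, none past the threshold, with a median of 0.66. Their summed level was 11.3 to 20.7 in WT and 25.9 to 42.9 in CD44KO WAT. The part of endothelial cells in the WAT values of Stab2 was not tested.

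The genotype difference of Stab2 in liver exceeded that in WAT by 1.18 (SE 0.41, 95% interval 0.31 to 2.04). Its unadjusted p was 0.0103 and its adjusted p 0.163, beside 15.8% of the 28987 probes with an unadjusted p under 0.05. Of the 4 genes measured in both tissues, Hyal1, Hyal2, Lyve1 and Stab2, none had an adjusted p under 0.05 for this interaction, beside 1.15% of the probes, and Hyal1 and Stab2 had an unadjusted p under 0.05. The other 5 genes passed the filter through WAT alone, so their interaction holds no measured genotype difference in liver and is not read here.

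Lyve1 spread widely within each group. In WT liver its scaled log2 signal was 0.44, 0.30, -0.97, 0.17 and -0.14, and in CD44KO liver -0.01, -0.86, 0.63, -1.30 and 0.23, so both genotypes held high and low arrays. The difference was -0.22 (SE 0.39, adjusted p = 0.735), and it was 0.038 without CD44KO liver replicate 4. Within the 3 liver slides it was -1.32, 0.28 and 0.96, so its sign differed between slides. In WAT the values were -0.02, 0.08, 1.09, 1.15 and 0.76 on WT and 0.61, -0.13, 0.23, 0.27 and 0.02 on CD44KO arrays, with WT replicates 3, 4 and 5 on top.

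The 2 Lyve1 probes gave unlike sizes in WAT. The brightest differed by -0.41 (SE 0.27, adjusted p = 0.484) and the second by -1.43 (SE 0.40, adjusted p = 0.197, exact permutation p = 0.016), with values of -0.96, -3.08, -1.61, -2.12 and -2.62 in WT against -3.08, -3.32, -4.25, -3.14 and -3.75 in CD44KO WAT. Only WT replicate 2 reached into the CD44KO range. Of 5 lymphatic endothelial markers tested in WAT, 3 had a higher and 2 a lower mean, none passed, and their summed level was 0.61 to 1.45 in WT and 0.49 to 0.73 in CD44KO mice. For macrophages all 8 markers had a lower mean in CD44KO WAT, none past the threshold, with sums of 183.9 to 248.9 in WT and 129.4 to 221.1 in CD44KO. Of the 6 markers of the Kupffer cell list, 1 had a higher and 5 a lower mean in CD44KO WAT. None passed, and the median was -0.71, or -0.45 without WT WAT replicate 1. The sums of that list were 23.7 to 34.9 in WT and 9.08 to 22.5 in CD44KO WAT. The part of these cells in the Lyve1 values was not tested.

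Hmmr was well above background on all 10 WAT arrays and on no liver array. Its scaled log2 signal was -1.58, -4.36, -3.90, -3.75 and -4.75 in WT WAT and -5.06, -5.99, -4.34, -4.03 and -4.27 in CD44KO WAT. WT replicate 1, the array that stood apart, was more than 2 units above the rest. The difference was -1.07 (SE 0.59, adjusted p = 0.413), and -0.55 without that array. Dividing-cell markers in WAT had a median difference of -0.05, with 3 of 10 higher, 7 lower and none past the threshold. In liver, where Hmmr could not be tested, 7 of 8 such markers tested fell, with a median of -1.09 and sums of 5.43 to 8.48 in WT and 2.23 to 4.81 in CD44KO.

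The synthases were measured in WAT. Has1 had scaled log2 signals of -1.90, -2.52, -1.81, -2.29 and -2.35 in WT and -2.55, -2.83, -2.31, -3.03 and -2.94 in CD44KO WAT. CD44KO replicate 3 was the only array of its group within the WT range, and replicate 1 lay just under it. The second Has1 probe was not well above background on enough arrays to be tested. The difference was -0.56 (SE 0.20, 95% interval -1.004 to -0.12), with an unadjusted p of 0.0182, an adjusted p of 0.25 and an exact permutation p of 0.024. Under quantile normalization, where the median over all probes moved from -0.06 to 0.11, it was 0.026, and array weights called it at -0.65 (adjusted p = 0.0184). Within slides 4 and 5 it was -0.79 and -0.09.

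Has2 was at -0.63, -1.43, -1.27, -1.46 and -1.98 in WT WAT and at -1.61, -2.48, -1.11, -2.001 and -1.93 in CD44KO WAT, again as scaled log2 signals. Both groups spanned more than 1 unit and overlapped. The difference was -0.47 (SE 0.30, adjusted p = 0.465), and -0.67 by the second probe (adjusted p = 0.555). Without WT WAT replicate 1 the difference by the brightest probe was -0.29 (adjusted p = 0.636), the value that quantile normalization gave too, and within slides 4 and 5 it was -1.16 and 0.45. Has3 was at the edge of detection, well above background on 2 WT and 3 CD44KO arrays of WAT, with values from -7.87 to -3.23 in WT and from -6.67 to -4.77 in CD44KO mice and a difference of 0.47 (SE 0.80, adjusted p = 0.772). Its highest value, -3.23, was on WT WAT replicate 1, without which the difference was 1.23 (adjusted p = 0.264).

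Has1 and Has2 went up and down together over the 10 WAT arrays, with a Pearson r of 0.78, or 0.70 over 9 arrays without WT WAT replicate 1. Has2 and Hmmr had an r of 0.81, or 0.65 without it. These arrays share their scaling and 2 genotypes, so the coefficients are descriptions, and the pairs were named after their values were seen.

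By the brightest probe of each gene, Tnfaip6 had the smallest limma p of the 9 genes in WAT, although the exact permutation p of Has1 and both p-values of the second Lyve1 probe were smaller. Its scaled log2 signal was -1.65, -0.52, -0.76, -0.997 and -1.29 on the WT arrays and -1.49, -1.61, -1.63, -1.90 and -1.87 on the CD44KO arrays. WT replicate 1 lay inside the CD44KO range, and the other 4 WT arrays lay above every CD44KO array. The difference was -0.66 (SE 0.22, 95% interval -1.14 to -0.17), with an unadjusted p of 0.013, an adjusted p of 0.234 and an exact permutation p of 0.032. It was -0.81 without WT WAT replicate 1 (adjusted p = 0.115), and -0.42 and -0.77 within slides 4 and 5. Quantile normalization gave -0.23 (adjusted p = 0.822), while array weights, at -1.05 (adjusted p = 0.00312), and the fit of all 20 arrays, at -0.66 (adjusted p = 0.0403), called it.

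Markers of the mesothelium, a cell layer rich in hyaluronan synthesis that covers abdominal fat, varied with the same groups. All 7 measured markers had a lower mean in CD44KO WAT, with a median of -2.18 (-2.15 without WT WAT replicate 1) and none past the threshold. Their summed level was 2.76 to 12.7 in WT and 1.18 to 3.92 in CD44KO WAT. Of 7 markers of fibroblasts and stellate cells tested in WAT, 4 had a higher and 3 a lower mean and none passed. Their median was 0.19, with sums of 278.5 to 435.6 in WT and 342.4 to 452.6 in CD44KO WAT. The part of these cell types in the Has1, Has2 and Tnfaip6 values was not tested.

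**Figure D3:**
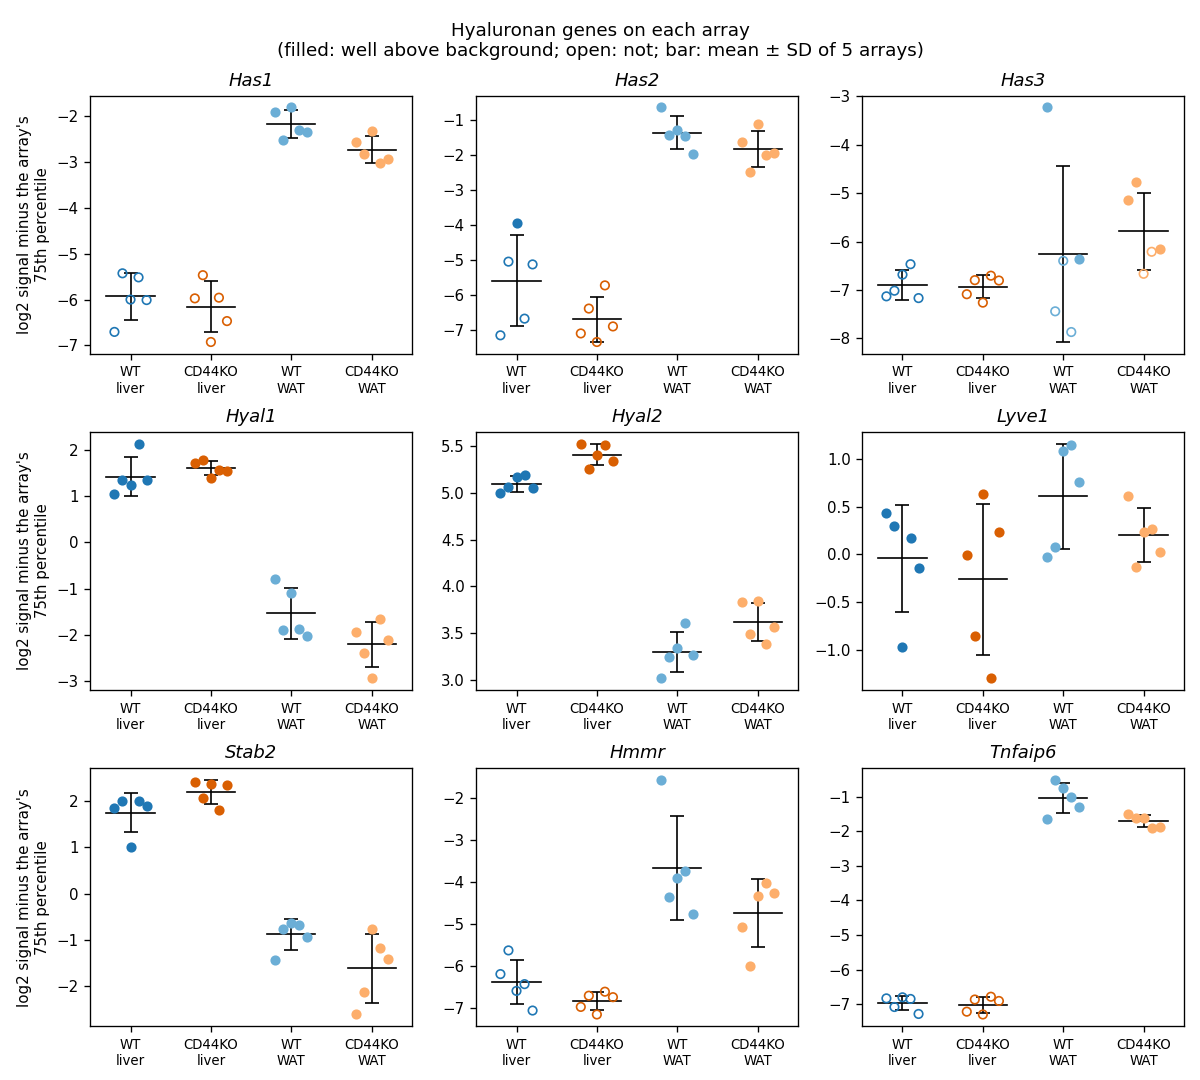
Scaled log2 signal (vertical axis, log2 signal minus the array's 75th percentile) of the 9 genes on each of the 20 arrays, by genotype and tissue (horizontal axis); filled circles are well above background, open ones are not, and bars are the mean ± SD of 5 arrays. Hyal2 separates the genotypes in liver, Has1, Has3, Hmmr and Tnfaip6 have no filled circle in liver, and the vertical axes differ between genes.

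Over all probes, far more were called between the tissues than between the genotypes. In WT mice 7 of the 9 genes passed the threshold between liver and WAT, beside 70.5% of all probes (36.2% higher and 34.3% lower in liver). In CD44KO mice it was also 7 of 9, beside 73.7% (41.8% higher and 31.9% lower). These shares are near those of all probes, so they are not a result about hyaluronan genes. Has1, Has2, Hmmr and Tnfaip6, among the 7, passed the filter through WAT alone. Their fitted p-values rest on liver signals that were mostly not well above background. In both genotypes Hyal1, Hyal2 and Stab2 were higher in liver and Has1, Has2, Hmmr and Tnfaip6 were higher in WAT, but without scaling between arrays Hyal2 was lower in liver, and under normexp Has1 and Hmmr were higher in liver in CD44KO mice. Slides and scanners were separate for the tissues, so those and the tissue cannot be told apart.

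These levels are relative to the array, and the 75th percentile itself was 433 to 575 intensity units in liver and 1541 to 2792 in WAT. A probe of equal intensity therefore had a higher scaled log2 signal in liver, by 2.11 in WT and 1.98 in CD44KO mice. Hyal2 shows what this does: its scaled log2 signal was higher in liver by 1.80 in WT (SE 0.12, adjusted p = 1.36e-10) and by 1.79 in CD44KO mice, while its deposited intensity was 15622 to 18349 in WT liver and 18767 to 24848 in WT WAT. Without scaling the liver minus WAT difference of Hyal2 was -0.31 in WT (adjusted p = 0.0624) and -0.18 in CD44KO mice (adjusted p = 0.263), so its place between the tissues rests on the scaling.

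Hyal1 kept the same direction with and without scaling. Relative to the 75th percentile it was higher in liver by 2.96 in WT (SE 0.27, adjusted p = 1.07e-08) and by 3.82 in CD44KO mice (adjusted p = 2.69e-10). Unscaled, the log2 differences were 0.86 (adjusted p = 0.022) and 1.84 (adjusted p = 4.39e-05). Stab2 was higher in liver by 2.63 in WT (SE 0.29, adjusted p = 1.79e-07) and by 3.81 in CD44KO mice (adjusted p = 9.53e-10), and unscaled by 0.52 (adjusted p = 0.194) and 1.83 (adjusted p = 0.000167).

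For the genes higher in WAT the fold is a lower bound at a set floor, since, apart from Has2 on 1 WT array, they were not well above background in liver. It sets the WAT mean against liver arrays where a dimmer signal was replaced by the dimmest one that array still detected well above background. That floor is not a firm detection limit. Cd44 in CD44KO liver, at -4.19 or higher, lay above the liver floors of -5.11 to -4.47, yet was well above background on 3 of 5 arrays. A higher limit would give smaller folds, and the folds were not tested. Tnfaip6 was at least 13.2-fold higher in WT WAT than in WT liver and at least 8.22-fold higher in CD44KO WAT than in CD44KO liver. Its scaled log2 signals were -7.28 to -6.80 in WT liver and -7.30 to -6.79 in CD44KO liver, with every WAT array above -2. The deposited intensities ran from 2.997 to 5.04 in liver and from 505.6 to 1392 in WAT. Over the alternative ways of processing, the liver minus WAT log2 difference of Tnfaip6 was as small as -2.34 in WT and -1.34 in CD44KO mice.

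Has1 was at least 6.05-fold higher in WT WAT (5.77 without WT WAT replicate 1) and at least 4.02-fold higher in CD44KO WAT. Its liver signals, -6.70 to -5.43 in WT and -6.92 to -5.47 in CD44KO mice, were far below each WAT array. By normexp background correction, which adds a constant of 50 before the log2, the CD44KO difference of Has1 was 0.028 (adjusted p = 0.924). After that correction the lowest value on an array was -3.95 to -3.30 in liver and -5.83 to -4.99 in WAT, so dim probes sat higher in liver by construction.

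Has2 was well above background on 1 WT liver array, replicate 3 at -3.94, while the other 4 lay between -7.15 and -5.04. The fit called it lower in WT liver than in WT WAT (adjusted p = 3.12e-07), but with 4 of the 5 liver arrays not well above background its size is not given. In CD44KO mice it was at least 7.52-fold higher in WAT. The liver minus WAT log2 difference of Has2 there was as small as -1.01 over the alternatives. The second Has2 probe was well above background on no liver array and on all 10 WAT arrays.

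Hmmr was at least 2.14-fold higher in WT WAT than in WT liver, or 1.49-fold without WT WAT replicate 1. In CD44KO mice no bound above 1 was reached, although the fit called it (adjusted p = 0.000663), and normexp turned that difference to 1.03 in favour of liver (adjusted p = 0.0199). Has3 gave no bound in either genotype and missed the threshold in both, at fitted log2 differences of -0.64 in WT and -1.14 in CD44KO mice (adjusted p = 0.359 and 0.0975). Without WT WAT replicate 1 these were 0.12 and -1.14, the latter then past the threshold (adjusted p = 0.00522). Lyve1 did not pass between the tissues by the scaled log2 signal, at -0.65 in WT (adjusted p = 0.107, or -0.81 and 0.0497 without WT WAT replicate 1) and -0.46 in CD44KO mice (adjusted p = 0.241). Unscaled it was lower in liver, at log2 differences of -2.76 and -2.44 (adjusted p = 2.15e-06 and 1.09e-05).

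**Figure D4:**
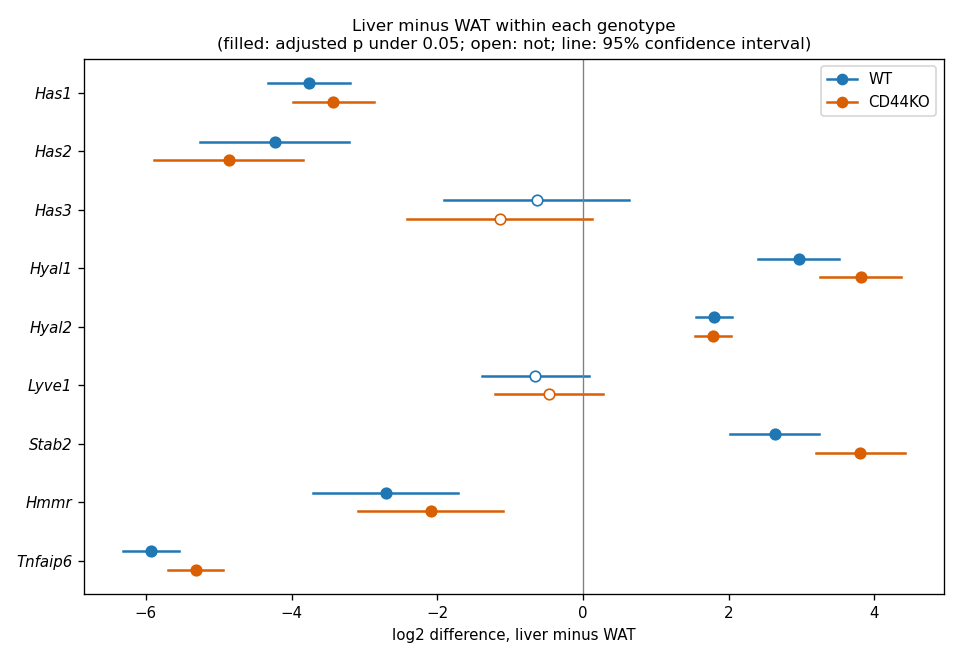
Difference in scaled log2 signal, liver minus WAT, for each of the 9 genes in WT (blue) and CD44KO (orange) mice; points are differences of means of 5 arrays, lines 95% confidence intervals, and filled points have an adjusted p under 0.05. Hyal1, Hyal2 and Stab2 lie to the right (Hyal2 at -0.31 and -0.18 without scaling), and Has1, Has2, Hmmr and Tnfaip6 to the left (Has1 at 0.028 and Hmmr at 1.03 in CD44KO mice under normexp), where liver signals were mostly not above background and the fitted size is not the fold.

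The wider pathway was read from a list of 39 other genes: enzymes that make the UDP-sugars, other enzymes of breakdown, other receptors or binding proteins, and partners in the matrix. In liver 29 of them were tested, of which 4 rose and 3 fell, Cd44 itself among the latter, beside 7.85% of all probes tested in liver that rose and 5.75% that fell. Their median difference was -0.01, beside 0.08 over all probes. The precursor enzymes had 1 of 7 lower, the other breakdown enzymes 1 of 6 lower, the other receptors 1 of 6 higher and 1 lower, and the matrix partners 3 of 10 higher.

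The genes that rose were plasma proteins made by the liver. Itih1, Itih3 and Itih4 belong to the inter-alpha-trypsin inhibitor heavy chain family. They were higher in CD44KO liver by 0.61 (SE 0.11, adjusted p = 0.0142), 0.61 (SE 0.14, adjusted p = 0.0258) and 0.72 (SE 0.17, adjusted p = 0.0256) on the log2 scale. Itih1 lay between 4.68 and 5.23 in WT and between 5.45 and 5.79 in CD44KO liver as scaled log2 signal, without overlap, and Itih4 did not overlap either. Itih2 differed by 0.36 (adjusted p = 0.1) and Itih5 by -0.51 (adjusted p = 0.137). Habp2, a hyaluronan-binding protease of plasma, was higher by 0.52 (SE 0.14, adjusted p = 0.0385). Of 5 hepatocyte markers tested none passed, 4 had a higher mean and their summed level was 1441 to 1803 in WT and 1710 to 1923 in CD44KO liver. Their part in these values was not tested.

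The genes that fell were Ugdh, Hexa and Cd44 itself. Ugdh, which makes UDP-glucuronic acid, fell by 0.72 on the log2 scale (SE 0.14, adjusted p = 0.0161), with 5.07 to 5.46 in WT and 4.14 to 4.90 in CD44KO liver as scaled log2 signal and no overlap. Hexa, a lysosomal hexosaminidase subunit that trims sugar chains, fell by 0.50 on the log2 scale (SE 0.12, adjusted p = 0.026), with groups that overlapped.

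The number of these pathway calls in liver depended on single arrays. It was 3 without WT liver replicate 1 or 2 or CD44KO liver replicate 4 or 5, 4 without CD44KO liver replicate 1 or 2, and 10 without CD44KO liver replicate 3. Ugdh, Itih1 and Cd44 passed in each of the 10 fits with 1 array left out, Habp2 and Itih4 in 4, and Hexa and Itih3 in 3. When all 20 arrays were fitted together Itih1, Itih3, Itih4, Habp2 and Hexa did not pass (adjusted p = 0.763, 0.523, 0.455, 0.894 and 0.141).

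In WAT 32 of the 39 genes were tested and Cd44 was the only call, a fall, beside 0.0398% of all probes tested there. Of the 32 genes 12 had a higher and 20 a lower mean, with a median difference of -0.15 beside -0.06 over all probes. Itih1 and Ugdh, called in liver, differed by -0.37 (adjusted p = 0.832) and 0.05 (adjusted p = 0.896) in WAT. The interaction for Ugdh was -0.77 (SE 0.21, adjusted p = 0.0815).

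**Figure D5:**
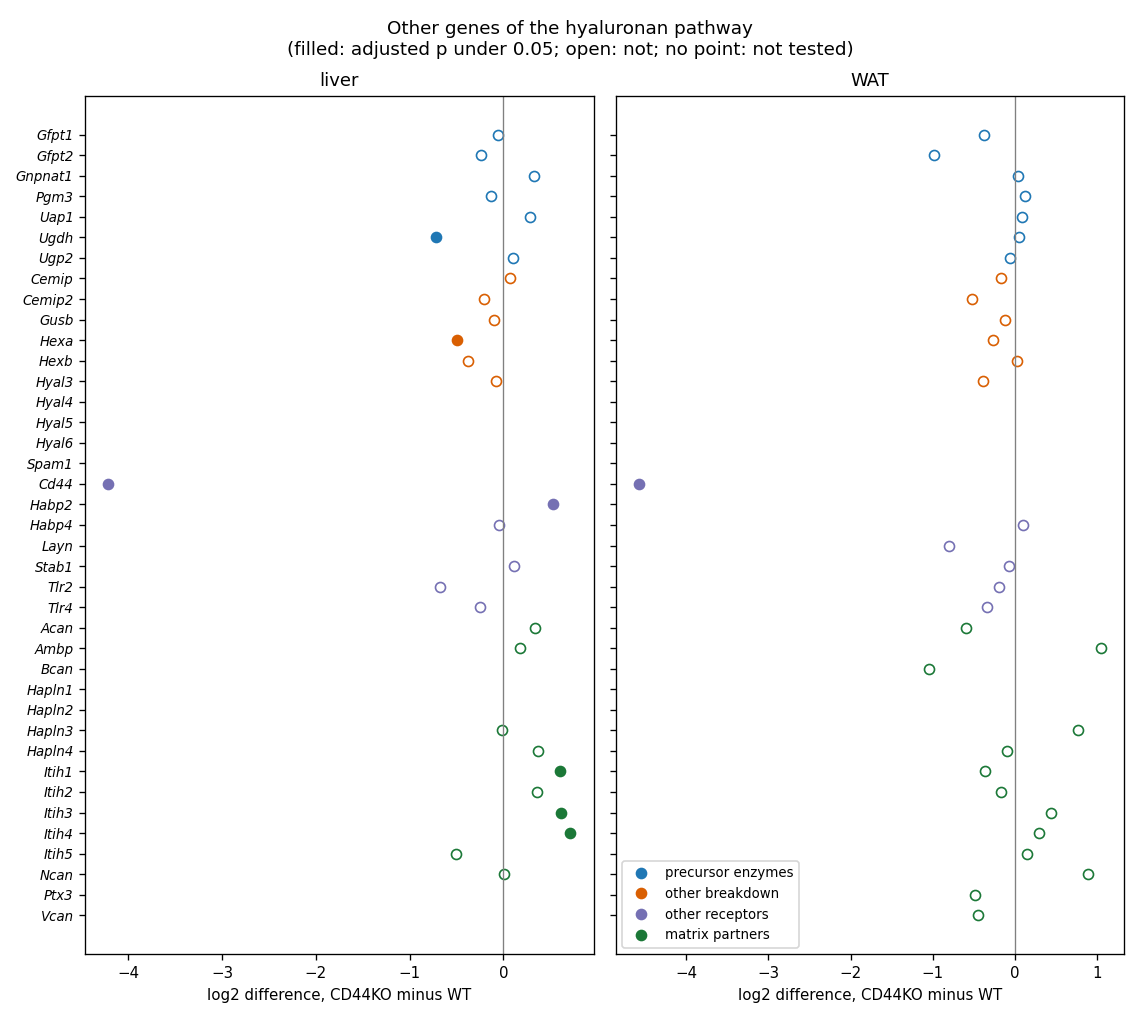
Difference in scaled log2 signal, CD44KO minus WT (horizontal axis), for 39 other hyaluronan pathway genes (vertical axis) in liver (left) and WAT (right), coloured by list; filled points have an adjusted p under 0.05, open points do not, and genes without a point were not tested. In liver Itih1, Itih3, Itih4 and Habp2 are filled on the right and Ugdh, Hexa and Cd44 on the left, and in WAT only Cd44 is filled.

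The genes whose scaled log2 signal was most like that of Hyal2 over the 10 liver arrays were Brip1 (Pearson r = 0.98), Rps28 (r = 0.96) and Pex26 (r = 0.96), out of 24688 probes. For Tnfaip6 over the 10 WAT arrays they were Cd59a (r = 0.93), Pdia3 (r = 0.87) and Mt3 (r = 0.87), out of 27651 probes. Both rankings are over 10 arrays that include the genotype difference, and are descriptions.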

How the data were processed

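RNA of liver and of WAT, 5 samples from WT and 5 from CD44KO mice for each, was hybridized to Agilent arrays with a single dye. The study's methods name no normalization or test for the arrays. The values used are linear intensities, deposited by the authors as Feature Extraction 9.5.3.1 processed them. The value table of the series equals the scanner files on 20 of 20 arrays. A spot counted as well above background at 13 times the standard deviation of its background. Control spots and outlier spots were left out, log2 intensities were reduced by each array's 75th percentile, and spots of a probe were averaged.

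The test took probes that stood well above background on 3 or more of a group's 5 arrays, and used limma 3.58.1 in R 4.3.3 (data.table package version 1.17.8, statmod 1.5.0), Benjamini-Hochberg adjusted over all probes tested, threshold 0.05, within each tissue and, for tissue and interaction, over all 20 arrays. For single genes the 252 relabellings of 5 against 5 arrays gave a two-sided exact permutation p. The fits were tested on simulated data. The labels name separate samples but not their animals, so p-values measure only the spread between these samples, which may be technical. The number of arrays limits the precision. Replicate numbers were not used to pair the arrays in the main fits.

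The genes and lists were chosen with earlier results of these data known. The text names all 9 members, other pathway genes past the threshold in a genotype comparison (Itih2 and Itih5 were added after their values were seen) and the 3 genes most like Hyal2 and Tnfaip6. Symbols are current ones where the accession matched the RefSeq reference (22951 probes). Alternatives varied background correction, normalization, filter, slide, weights, probe and arrays.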

Additional observations from a re-analysis of the deposited data

Results flagged for a closer look

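Groups of 5 arrays were searched for 1 array far from the other 4, over 54 groups of the genes named in the report, and 4 were found. Chance gives about 1 in 20 groups. Hyal1 was at a scaled log2 signal of 2.14 on WT liver replicate 4, with the other 4 arrays between 1.05 and 1.36. Stab2 was at 1.01 on WT liver replicate 3, below the 1.85 to 2.004 of the rest. Ugdh, the UDP-glucose dehydrogenase, was at 5.46 on the same array, above 5.07 to 5.18. Habp2, a plasma protease, was at -1.60 on WT WAT replicate 1, the array that stood apart, against -8.67 to -7.88 on the other WT WAT arrays, none of which was well above background.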

How the results depend on the processing

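The number of hyaluronan genes called between genotypes in liver, 1 as reported, was 0 under normexp, quantile normalization, no filter on dim probes and all 20 arrays in one fit, and 0 to 2 with 1 array left out (2 without WT liver replicate 4, which added Hyal1). In WAT, 0 as reported, it was 4 with array weights (Has1, Has2, Stab2 and Tnfaip6) and 1 with all 20 arrays in one fit (Tnfaip6). For the interaction array weights gave 2 (Stab2 and Tnfaip6), of which Tnfaip6 was not well above background on any liver array, so that its value is no comparison of 2 measured genotype differences. The same holds for Has1, Has2 (well above background on 1 liver array), Has3 and Hmmr. Of the other pathway genes 7 were called in liver, and 4 under normexp, 4 without the filter, 2 with all 20 arrays and 3 to 10 with 1 array left out. In WAT, 1 as reported, 6 were called with array weights and 3 with all 20 arrays. The shares of all probes called with array weights or with all 20 arrays in one fit are not given here. Counts under those settings are therefore not read as a result about hyaluronan genes. The cause of these changes was not tested, except that without the filter more probes were tested.

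Replicate numbers gave correlations of deviations from -0.04 to 0.34 between liver genotypes and -0.21 to 0.12 in WAT, and in liver 1 array of 5 correlated best with its own number. Between liver and WAT they were -0.20 to 0.14 in WT and -0.06 to 0.11 in CD44KO mice. Correlations across tissues cannot decide whether samples came from the same mouse, so the arrays were treated as unpaired. With the replicate number as a block the liver count was 0, Hyal2 keeping 0.32 at an adjusted p of 0.0733, and Hexa and Habp2 missed the threshold (adjusted p = 0.0563 and 0.0513). With the block 6 of the other pathway genes passed in liver and 1 in WAT, and no other call of a named gene changed.

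Signs that turned belonged to genes that were dim, uncalled or, for the tissue differences, dependent on scaling. Under normexp they were Has3 in WAT (-0.37), the tissue difference of Has3 in WT (0.79) and of Has1 (0.028), Has3 (1.45) and Hmmr (1.03) in CD44KO mice, and the interaction of Has2 (0.64) and Has3 (0.66). Under quantile normalization they were Has1 in WAT (0.026) and the interactions of Has1 (-0.18), Hyal2 (0.032) and Hmmr (-0.012). Without scaling it was the tissue difference of Hyal2 (-0.31 in WT and -0.18 in CD44KO mice), an alternative chosen after seeing the data, as were those for the pathway list. Array weights turned the tissue difference of Has3 in WT (0.20) and the interactions of Hyal2 (0.15) and Hmmr (-0.22). The second probe turned the tissue difference of Lyve1 in CD44KO mice (0.81) and the interaction of Has2 (0.26). With 1 array left out, turned values lay within ranges of -0.45 to 0.038 for Lyve1 in liver, -1.04 to 0.12 for the tissue difference of Has3 in WT, -0.088 to 0.061 for the interaction of Hyal2 and -0.046 to 0.45 for that of Lyve1.

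The median over all probes tested moved with the scaling, from 0.27 to -0.05 under quantile normalization and 0.83 under normexp for the tissue difference in CD44KO mice. Called probes that were higher made up 57.7% in liver (33.7% under normexp), 27.3% in WAT (17.1%) and 24.3% for the interaction (39.8%). For the tissue difference they made up 51.3% in WT (64.5% under normexp, 8.33% unscaled) and 56.7% in CD44KO mice (72.8%, 11.5%). Signal over background limits what the liver arrays show of Has1, Has2, Has3, Hmmr and Tnfaip6: those not well above background there have no measured level in liver, and for Has3, and Hmmr in CD44KO mice, no fold between tissues could be given.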
